A study of Mus musculus with 24 samples.

Results

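The 8 genes described here cover 3 steps of Wnt signalling in mouse astrocyte cultures: the ligands Wnt5a, Wnt5b and Wnt9a, the R-spondin Rspo3, and the readout genes Axin2, Lef1, Nkd1 and Znrf3. They were taken by symbol from count tables of 32719 genes, and 7 of the 8 were among the 15599 genes that passed a filter on low counts, while Lef1 was not. The genes were chosen by their measured levels in these same libraries, and since no single comparison is named for that choice, every comparison among the 6 groups counts as used. Levels, differences and calls of the 8 genes are therefore a description and carry no test, and tests are given for other genes of the pathway.

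Wnt proteins are secreted, lipid-modified ligands that bind Frizzled receptors with the co-receptors Lrp5 and Lrp6, which keeps beta-catenin from being degraded and lets it act with TCF/LEF factors on target genes. Another branch, for which Wnt5a and Wnt5b are best known, works without beta-catenin through receptors such as Ror1 and Ror2. R-spondins raise the response by keeping the membrane ubiquitin ligases Znrf3 and Rnf43 from clearing Frizzled, and several pathway genes, Axin2, Nkd1, Znrf3 and Lef1 among them, are themselves switched on by beta-catenin, so that their RNA is often read as a measure of the pathway.

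The cultures were primary astrocytes of the cortex of newborn pups whose insulin receptor alleles (IR) were floxed. Cells called IRKO had been infected with an adenovirus that encodes Cre:GFP, and the control cells, called IRflox, with one that encodes GFP alone, so genotype and virus go together and their effects cannot be told apart. After 5 more days and an overnight serum starvation, the cells received insulin or IGF-1, each at 100 nM, or vehicle alone for 6 h, and the titles give day 14 in vitro. This gave 6 groups of 4 libraries: IRKO with insulin, IRKO with IGF-1, IRKO with vehicle, IRflox with insulin, IRflox with IGF-1 and IRflox with vehicle. Whether replicate libraries stem from different cultures is not stated in the labels, so errors and p-values measure the spread among the libraries as sequenced, part or all of which may be technical.

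Each library held 15429688 to 19010986 gene counts, and levels are given as CPM, the count scaled to library size, with a TMM correction for library composition. Insr, the targeted gene, had 26.6 to 30.6 CPM in IRKO and 47.4 to 52.6 CPM in IRflox under insulin, 29.0 to 32.2 CPM in IRKO and 46.7 to 50.9 CPM in IRflox under IGF-1, and 37.7 to 43.6 CPM in IRKO and 58.8 to 66.8 CPM in IRflox under vehicle. Insr was lower in IRKO in all 3 pairs (log2 differences -0.78, -0.68 and -0.61, adjusted p = 1.56e-12, 1.17e-10 and 3e-10 by edgeR's quasi-likelihood test), with no library of one genotype inside the range of the other. A gene is said below to be called where its adjusted p over all 15599 genes was under 0.05. The sources used here do not say which exon the floxed allele loses, and the counts cover all exons. Astrocyte markers summed to 4182 to 4942 CPM over the 24 libraries, with Gjb6, one of the 12, near 0.

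Promoter sequences were available for 5 of the 8 genes in the RefSeq table (GRCm38.p6), namely Axin2, Lef1, Nkd1, Wnt5b and Wnt9a. The 250 bases before the start sites of Axin2 (chr11:108920099-108920348, plus strand) and Nkd1 (chr8:88527383-88527632, plus strand) are shown because both genes are readouts of the same pathway and their levels behaved differently, and that of Wnt5b (chr6:119449387-119449636, minus strand, the most downstream of its 3 start sites) because it was the one window with a TCF/LEF motif. Each reads 5′ to 3′, and capitals mark the motif. The start used for Nkd1 lies within the gene as GENCODE draws it, downstream of its first exon's start.
Axin2: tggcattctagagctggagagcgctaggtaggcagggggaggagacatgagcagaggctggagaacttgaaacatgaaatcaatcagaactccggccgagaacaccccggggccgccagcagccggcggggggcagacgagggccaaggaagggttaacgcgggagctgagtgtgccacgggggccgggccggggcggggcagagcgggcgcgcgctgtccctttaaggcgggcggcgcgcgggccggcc
Nkd1: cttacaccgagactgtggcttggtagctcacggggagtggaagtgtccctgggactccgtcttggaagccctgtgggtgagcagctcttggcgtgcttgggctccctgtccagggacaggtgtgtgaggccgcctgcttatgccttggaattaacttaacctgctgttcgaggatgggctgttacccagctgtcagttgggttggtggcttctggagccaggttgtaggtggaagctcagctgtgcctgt
Wnt5b: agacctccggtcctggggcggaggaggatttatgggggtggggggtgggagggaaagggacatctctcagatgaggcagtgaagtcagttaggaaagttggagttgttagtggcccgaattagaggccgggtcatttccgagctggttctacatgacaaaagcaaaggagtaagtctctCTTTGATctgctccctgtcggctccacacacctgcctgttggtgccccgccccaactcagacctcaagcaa
The TCF/LEF motif searched was CTTTGAA or CTTTGAT on both strands, which 7.48% of 32851 mouse promoter windows of this length hold. In Wnt5b, CTTTGAT lay 71 to 65 bases before the start. The FOXO motif GTAAACA, held by 3.17% of the windows, was in none of the 10 windows of the 5 genes. A match is a description of letters, and the lack of one says nothing about binding elsewhere.

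Because read counts grow with transcript length, levels of different genes were compared as CPM per kilobase of exon (GENCODE M21, GRCm38). On this scale Wnt5a, with a mean of 10.3 over the 24 libraries, stood highest of the 8 genes, followed by Axin2 at 7.75, Wnt9a at 4.61, Wnt5b at 4.56, Rspo3 at 4.25, Znrf3 at 2.83, Nkd1 at 0.767 and Lef1 at 0.0267. Wnt9a and Wnt5b, neighbours in that order, overlapped, with 3.92 to 5.98 and 3.28 to 5.76 CPM per kilobase, and Rspo3, at 1.78 to 6.97, ran across both and across Znrf3, at 2.44 to 3.32. Of the 19 mouse Wnt ligand genes, 9 passed the filter. Beside the 3 described here these were Wnt7a (mean 9.71 CPM per kilobase), Wnt7b (1.48), Wnt6 (1.07), Wnt2b (0.583), Wnt4 (0.415) and Wnt10a (0.228). Wnt5a and Wnt7a were thus the ligands with the most RNA per kilobase in these cultures. Their ranges overlapped, at 8.05 to 11.63 and 6.17 to 12.76 CPM per kilobase, and their order changed with treatment. In both genotypes Wnt5a had the higher group mean with vehicle, and Wnt7a had it with insulin and with IGF-1.

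**Figure D1:**
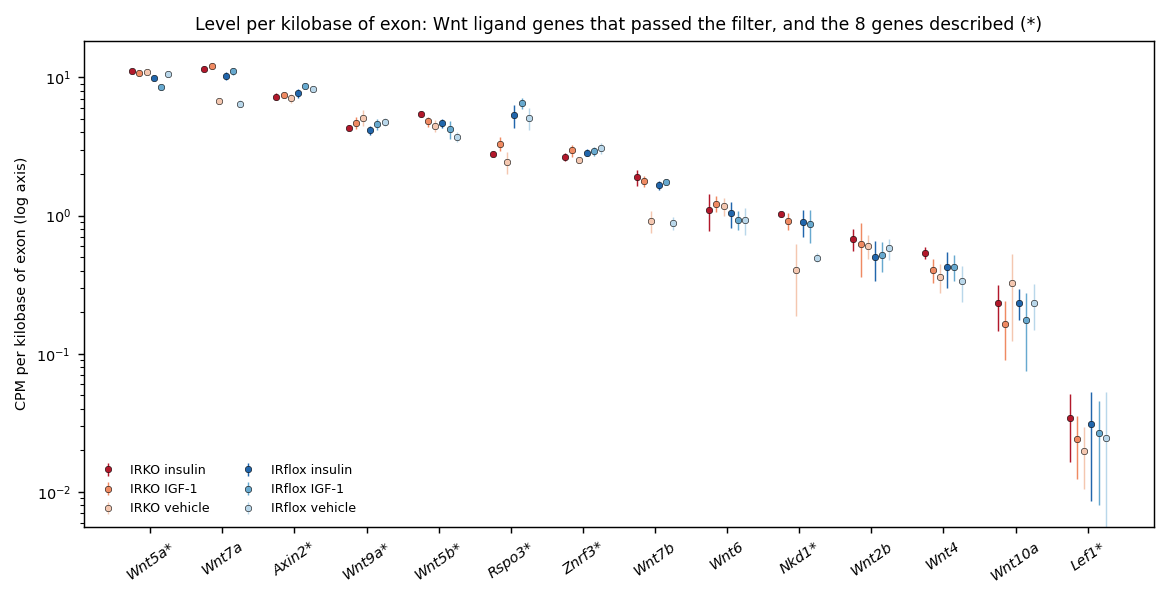
Level per kilobase of exon (log axis) of the 9 Wnt ligand genes that passed the filter and of the other genes described, with the mean and SD of 4 libraries in each of 6 groups; asterisks mark the 8 genes. Wnt5a and Wnt7a average 10.3 and 9.71 CPM per kilobase over the 24 libraries and Lef1 averages 0.0267, with SD bars that run past the lower edge of the axis where the SD exceeds the mean.

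Wnt5a, the ligand with the highest mean per kilobase over all 24 libraries, had 3 overlapping treatment groups in IRKO cells and 3 that did not overlap in IRflox cells. It is on chromosome 14 (28504750 to 28527448, plus strand, GRCm38). Its level in IRKO cells was 90.9, 85.6, 85.4 and 86.7 CPM with insulin, 85.0, 82.8, 86.2 and 85.0 CPM with IGF-1, and 85.7, 85.9, 84.6 and 88.7 CPM with vehicle. In IRflox cells it was 74.1, 77.3, 80.6 and 78.0 CPM with insulin, 69.6, 68.1, 62.9 and 66.1 CPM with IGF-1, and 83.1, 81.2, 81.1 and 84.0 CPM with vehicle. All 4 IRflox libraries with IGF-1 lay below all other libraries of the study, those with insulin lay between them and the IRflox vehicle libraries, and the 3 IRKO groups overlapped. In each treatment all 4 IRKO libraries lay above all 4 IRflox libraries.

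The log2 difference of Wnt5a between IGF-1 and vehicle was -0.02 (SE 0.040) in IRKO cells and -0.30 (SE 0.041) in IRflox cells. Between insulin and vehicle it was 0.02 (SE 0.040) in IRKO and -0.09 (SE 0.040) in IRflox. Insulin minus IGF-1 was 0.04 (SE 0.040) in IRKO and 0.22 (SE 0.041) in IRflox. IRKO minus IRflox was 0.17 (SE 0.040) with insulin, 0.35 (SE 0.041) with IGF-1 and 0.07 (SE 0.040) with vehicle, the last not called. The IGF-1 response in IRKO minus that in IRflox was 0.28 (SE 0.057) for Wnt5a, and the insulin response difference was 0.10 (SE 0.057). Across all 15599 genes, edgeR called no gene in either difference of responses, with 822 genes at an unadjusted p under 0.05 for IGF-1 and 838 for insulin. DESeq2 called 2 genes for IGF-1, Wnt5a and Stat2 (named for the small count), and 0 for insulin. The lower level with insulin in IRflox was not called in the main edgeR fit. It was called by DESeq2 and in 4 other edgeR fits, at -0.10 to -0.12, one of them without IRflox insulin replicate 3 (-0.12).

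Wnt5b, the close relative of Wnt5a, followed another pattern. The gene is on chromosome 6 (119432531 to 119544347, minus strand). It had 15.02, 13.8, 15.3 and 14.1 CPM with insulin, 12.1, 12.2, 14.3 and 12.5 CPM with IGF-1 and 10.2, 12.3, 11.8 and 13.2 CPM with vehicle in IRKO cells. In IRflox cells the values were 12.6, 12.3, 11.2 and 13.4 CPM with insulin, 9.14, 12.8, 10.4 and 12.2 CPM with IGF-1, and 10.4, 9.84, 8.70 and 10.7 CPM with vehicle. In both genotypes the insulin libraries lay above the vehicle libraries without overlap, and the IGF-1 libraries overlapped both.

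The log2 difference of Wnt5b between insulin and vehicle was 0.29 (SE 0.095) in IRKO and 0.32 (SE 0.101) in IRflox cells, against 0.10 (SE 0.097) and 0.17 (SE 0.102) for IGF-1. The call in IRKO was lost without IRKO vehicle replicate 1 (0.21) or IRKO insulin replicate 3 (0.25). IRKO minus IRflox was 0.23 (SE 0.096) with insulin, where the groups did not overlap, 0.19 (SE 0.099) with IGF-1 and 0.27 (SE 0.100) with vehicle, and none of these was called. Without IRKO vehicle replicate 1 the vehicle difference was 0.33 and was called, and without IRflox IGF-1 replicate 1 the IGF-1 response in IRflox was 0.24 and was called.

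Wnt9a, a ligand known from joint formation in the mouse, was lower with insulin in both genotypes, with ranges that overlapped in IRKO and in IRflox. It is on chromosome 11 (59306928 to 59333552, plus strand) and averaged 14.4 ± 0.533 CPM with insulin, 15.7 ± 1.62 CPM with IGF-1 and 17.03 ± 2.20 CPM with vehicle in IRKO cells, and 13.9 ± 1.03, 15.2 ± 1.30 and 15.9 ± 0.977 CPM in the matching IRflox groups (SD, n = 4 each). In both genotypes the order of means was insulin, IGF-1, vehicle from low to high, and the neighbouring groups overlapped. The log2 difference between insulin and vehicle was -0.24 (SE 0.088) in IRKO and -0.20 (SE 0.090) in IRflox cells. The IRKO one was called, but not without IRKO vehicle replicate 4 (-0.16) or IRKO insulin replicate 4 (-0.22), and the IRflox one was called under 3 of 15 alternatives, at -0.21 to -0.27, the last without IRflox insulin replicate 1.

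Rspo3 carried the largest difference between genotypes among the 8 genes. It is on chromosome 10 (29452416 to 29535867, minus strand). IRKO cells had 8.16, 8.92, 8.62 and 9.07 CPM with insulin, 11.9, 10.2, 9.43 and 9.43 CPM with IGF-1, and 8.16, 5.51, 8.42 and 8.02 CPM with vehicle. IRflox cells had 12.4, 15.8, 19.7 and 17.8 CPM with insulin, 18.2, 21.5, 21.5 and 19.1 CPM with IGF-1, and 12.2, 14.6, 18.1 and 18.1 CPM with vehicle. Every IRKO library was below every IRflox library, also across treatments, and within each genotype IGF-1 gave the highest mean.

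As log2 differences, Rspo3 in IRKO minus IRflox was -0.92 (SE 0.126) with insulin, -0.97 (SE 0.121) with IGF-1 and -1.07 (SE 0.128) with vehicle, so IRKO cells held 52.9, 50.9 and 47.6% of the IRflox level. Between IGF-1 and vehicle it was 0.45 (SE 0.135) in IRKO and 0.35 (SE 0.114) in IRflox cells, without overlap. These 2 calls each rested on a vehicle library: the IRKO one was lost without IRKO vehicle replicate 2 (0.32) and the IRflox one without IRflox vehicle replicate 1 (0.23). Between insulin and vehicle Rspo3 differed by 0.21 (SE 0.138) in IRKO and 0.06 (SE 0.117) in IRflox cells, within the spread of the libraries. Insulin minus IGF-1 was -0.24 (SE 0.134) in IRKO, where the insulin libraries lay below the IGF-1 libraries without overlap, and -0.29 (SE 0.114) in IRflox, and neither was called, though with no filter on low counts the IRflox one was, at -0.30 (SE 0.091). In order of the group means, IRflox with IGF-1 was highest (20.1 ± 1.70 CPM), IRflox with insulin (16.4 ± 3.12) and vehicle (15.8 ± 2.89) did not differ beyond their spread, and the 3 IRKO groups followed at 10.2 ± 1.15, 8.69 ± 0.404 and 7.53 ± 1.36 CPM for IGF-1, insulin and vehicle (SD, n = 4 each).

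**Figure D2:**
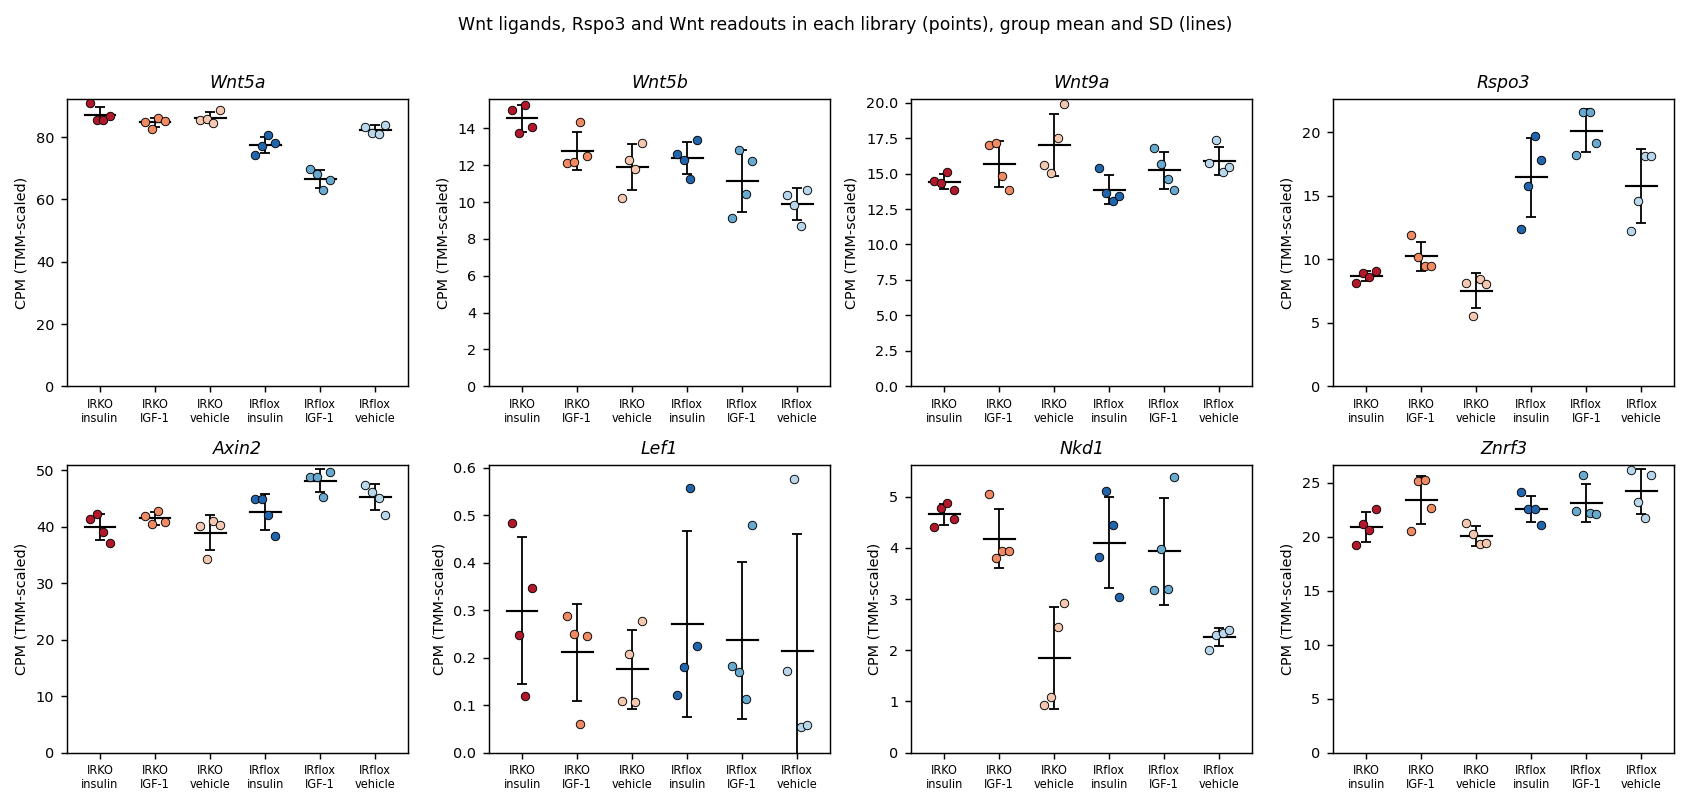
Level (CPM, TMM-scaled) of the 8 genes in each library, with the group mean and SD as lines; vertical axes start at 0 and the SD bars of Lef1 are cut there. Rspo3 is lower in all 12 IRKO libraries than in all 12 IRflox libraries, Nkd1 is lowest in the vehicle groups, Wnt5a is lowest in IRflox with IGF-1, and Lef1 reaches at most 0.575 CPM.

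Some markers of other cell types differed with genotype in these cultures. Beside each count below stand 10.5, 6.76 and 7.86% of all tested genes, called in either direction with insulin, IGF-1 and vehicle. Microglial markers (14 of 14 measured) summed to 1242 to 1275 CPM in IRKO and 1035 to 1105 CPM in IRflox with insulin, to 1225 to 1297 and 1078 to 1124 CPM with IGF-1, and to 1461 to 1500 and 1192 to 1261 CPM with vehicle. Of these 14 genes, 8, 6 and 11 rose in IRKO under insulin, IGF-1 and vehicle, Csf1r among them each time (log2 difference 0.28, adjusted p = 8.91e-07 with vehicle, edgeR). Fibroblast and mural markers, with Des and Abcc9 near 0 among 12, had sums that overlapped, 345 to 399 CPM in IRKO and 348 to 434 CPM in IRflox. Of the 9 tested, 1, 1 and 2 fell in IRKO with insulin, IGF-1 and vehicle (edgeR). Lum, a proteoglycan gene of fibroblasts chosen after its values were seen, was lower in IRKO in all 3 pairs (0.729 against 3.25 CPM with insulin, 1.06 against 3.52 with IGF-1 and 1.14 against 3.11 with vehicle, adjusted p = 2.07e-07, 7.61e-06 and 5.86e-05, edgeR). Dcn, another, was lower with vehicle (1.29 against 2.67 CPM, adjusted p = 0.0049, edgeR), and Col1a1 and Col1a2, the second chosen after its values were seen, passed the test in none of the 3. Pdgfrb, a receptor of mural cells and fibroblasts, was called higher in IRKO with IGF-1 (52.96 against 46.37 CPM, adjusted p = 0.0432, edgeR), but not without any one of 7 of the 8 libraries compared (log2 0.17 to 0.21). Neuronal markers, with Snap25 and Nefl near 0 among 10, had lower sums in IRKO in each pair, at 146 to 151 and 172 to 184 CPM in IRKO and IRflox with insulin, 148 to 158 and 171 to 181 CPM with IGF-1, and 127 to 138 and 150 to 153 CPM with vehicle. Of the 7 tested, 3, 2 and 2 fell in IRKO with insulin, IGF-1 and vehicle (edgeR), Map2 and Stmn2 each time and Gad1 with insulin, while Tubb3 was called higher with insulin (log2 0.35), though not with the replicate block or without any one of 5 libraries (0.29 to 0.35). Oligodendrocyte-lineage sums were higher in IRKO without overlap, at 434 to 440.5 and 377 to 418 CPM in IRKO and IRflox with insulin, 461 to 492 and 419 to 448 CPM with IGF-1, and 332 to 354 and 306 to 331 CPM with vehicle. Of the 8 tested genes of that list, 1, 2 and 1 rose in these 3 pairs and 0 fell (edgeR). Sox10, a defining marker of this lineage, averaged 0.0742 to 0.3005 CPM over the 6 groups and did not pass the filter. Nor did the neuronal marker Rbfox3, at 0.122 to 0.204 CPM, so neither sum rests on these genes. Astrocyte sums did not overlap with IGF-1 (4511 to 4547 CPM in IRKO and 4182 to 4340 CPM in IRflox) and did with insulin and with vehicle. Of their defining markers, Slc1a3 was called higher in IRKO with IGF-1 and vehicle (log2 0.115 and 0.131, adjusted p = 0.0177 and 0.00492, edgeR). Aqp4 was called higher with IGF-1 alone (0.163, adjusted p = 0.00159, edgeR), and Gfap was called in none of the 3 pairs. Endothelial ones, with Cldn5 and Emcn near 0 among 7, summed to 6.18 to 10.2 CPM in IRKO and 6.89 to 11.3 CPM in IRflox. The part of these markers in the genotype differences of Rspo3, Axin2 and Znrf3 was not tested, and in bulk RNA fewer cells of a type and less RNA per cell cannot be told apart.

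Axin2, the scaffold of the beta-catenin destruction complex and, of the 4 readouts described, the one with the highest level per kilobase, differed little between either ligand and vehicle. It is on chromosome 11 (108920349 to 108950783, plus strand). Its level was 41.3, 42.3, 39.0 and 37.1 CPM with insulin, 41.8, 40.4, 42.8 and 40.7 CPM with IGF-1 and 40.2, 34.3, 41.0 and 40.2 CPM with vehicle in IRKO cells. IRflox cells had 44.9, 44.9, 42.1 and 38.3 CPM with insulin, 48.8, 48.9, 45.2 and 49.7 CPM with IGF-1, and 47.5, 46.2, 45.0 and 42.1 CPM with vehicle. IRKO lay below IRflox without overlap with IGF-1 and with vehicle, and the insulin groups overlapped.

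The log2 difference of Axin2 between IRKO and IRflox was -0.22 (SE 0.059) with IGF-1, -0.21 (SE 0.059) with vehicle and -0.09 (SE 0.060) with insulin. The vehicle call was lost without IRKO vehicle replicate 2 (-0.16) or IRflox vehicle replicate 1 (-0.20), and the IGF-1 call without IRKO IGF-1 replicate 2 or IRflox IGF-1 replicate 4 (-0.20 each). Against vehicle, insulin gave 0.04 (SE 0.060) in IRKO and -0.09 (SE 0.059) in IRflox cells, and IGF-1 gave 0.09 in both (SE 0.060 and 0.059), none of them called. In IRflox the insulin libraries lay below the IGF-1 libraries without overlap, by 0.18 (SE 0.059).

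Nkd1, which binds Dishevelled and dampens Wnt signalling, was higher with both ligands in both genotypes. It is on chromosome 8 (88521354 to 88594884, plus strand). IRKO cells had 4.40, 4.77, 4.87 and 4.56 CPM with insulin, 5.05, 3.80, 3.93 and 3.94 CPM with IGF-1, and 0.930, 1.09, 2.45 and 2.93 CPM with vehicle. IRflox cells had 3.81, 5.10, 4.45 and 3.03 CPM with insulin, 3.17, 3.97, 3.20 and 5.39 CPM with IGF-1, and 2.01, 2.30, 2.33 and 2.40 CPM with vehicle. In both genotypes every ligand library exceeded every vehicle library, and the IRKO vehicle libraries fell into a low and a higher pair.

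Nkd1 differed from vehicle by 1.33 (SE 0.225) with insulin and 1.18 (SE 0.229) with IGF-1 in IRKO cells on the log2 scale, and by 0.85 (SE 0.225) and 0.79 (SE 0.226) in IRflox cells. These are levels 2.51 and 2.27 times the vehicle level in IRKO, and 1.81 and 1.74 times in IRflox. The responses in IRKO minus IRflox were 0.48 (SE 0.322) for insulin and 0.39 (SE 0.325) for IGF-1, and IRKO minus IRflox was 0.19 (SE 0.204) with insulin, 0.09 (SE 0.208) with IGF-1 and -0.29 (SE 0.250) with vehicle. Counts of Nkd1 were low, 17 to 90 per library. All 4 calls against vehicle held in each of the 15 alternatives tried. Beside the ligand differences of Nkd1, Rspo3 and Wnt5b, oligodendrocyte-lineage markers summed to 434 to 440.5 CPM with insulin and 461 to 492 CPM with IGF-1, against 332 to 354 CPM with vehicle, in IRKO, and to 377 to 418 and 419 to 448, against 306 to 331 CPM, in IRflox. The 8 tested genes of that list split: Olig1 and Olig2 rose in all 4 comparisons, and Pdgfra in 2 of them, while Mbp fell in all 4, Cnp in 3 and Cspg4 in 2 (edgeR). Of 14 microglial markers, 12 fell with insulin and 11 with IGF-1 in IRKO and 9 and 6 in IRflox (edgeR). In the same order, 3387, 3919, 3333 and 3809 of all 15599 genes fell, and 46.4, 52, 45.7 and 50.8% were called in either direction. The part of either marker list in the differences was not tested.

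Znrf3, the ubiquitin ligase that Rspo3 acts against, is on chromosome 11 (5276324 to 5444847, minus strand). It had 19.3, 21.1, 20.6 and 22.6 CPM with insulin, 20.5, 25.2, 25.2 and 22.6 CPM with IGF-1 and 21.3, 20.2, 19.3 and 19.4 CPM with vehicle in IRKO cells. In IRflox cells it had 24.1, 22.6, 22.5 and 21.0 CPM with insulin, 22.4, 25.7, 22.2 and 22.1 CPM with IGF-1, and 26.2, 23.2, 21.8 and 25.7 CPM with vehicle. The vehicle groups did not overlap, IRKO being lower, while the groups with insulin and with IGF-1 did.

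Znrf3 in IRKO minus IRflox was -0.27 (SE 0.075) with vehicle, -0.11 (SE 0.076) with insulin and 0.02 (SE 0.075) with IGF-1. The vehicle call was lost without IRflox vehicle replicate 1 or 4 (-0.24 each) or IRKO vehicle replicate 3 (-0.25). IGF-1 minus vehicle was 0.22 (SE 0.076) in IRKO and -0.07 (SE 0.075) in IRflox cells, and the IRKO call was lost without IRKO IGF-1 replicate 2 or 3 (0.17 each). The IGF-1 responses differed by 0.29 (SE 0.106), which neither edgeR nor DESeq2 called.

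Lef1, a TCF/LEF factor and target, was barely detected. The gene is on chromosome 3 (131110471 to 131224356, plus strand). Its counts were 9, 4, 2 and 6 with insulin, 5, 4, 1 and 4 with IGF-1 and 2, 4, 2 and 5 with vehicle in IRKO libraries, and 2, 3, 9 and 4 with insulin, 3, 3, 2 and 8 with IGF-1 and 3, 9, 1 and 1 with vehicle in IRflox libraries. With 96 counts in all, Lef1 did not pass the filter and its groups were not compared. Tcf7, a member of the same factor family, had a mean of 15.6 CPM per kilobase of exon.

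**Figure D3:**
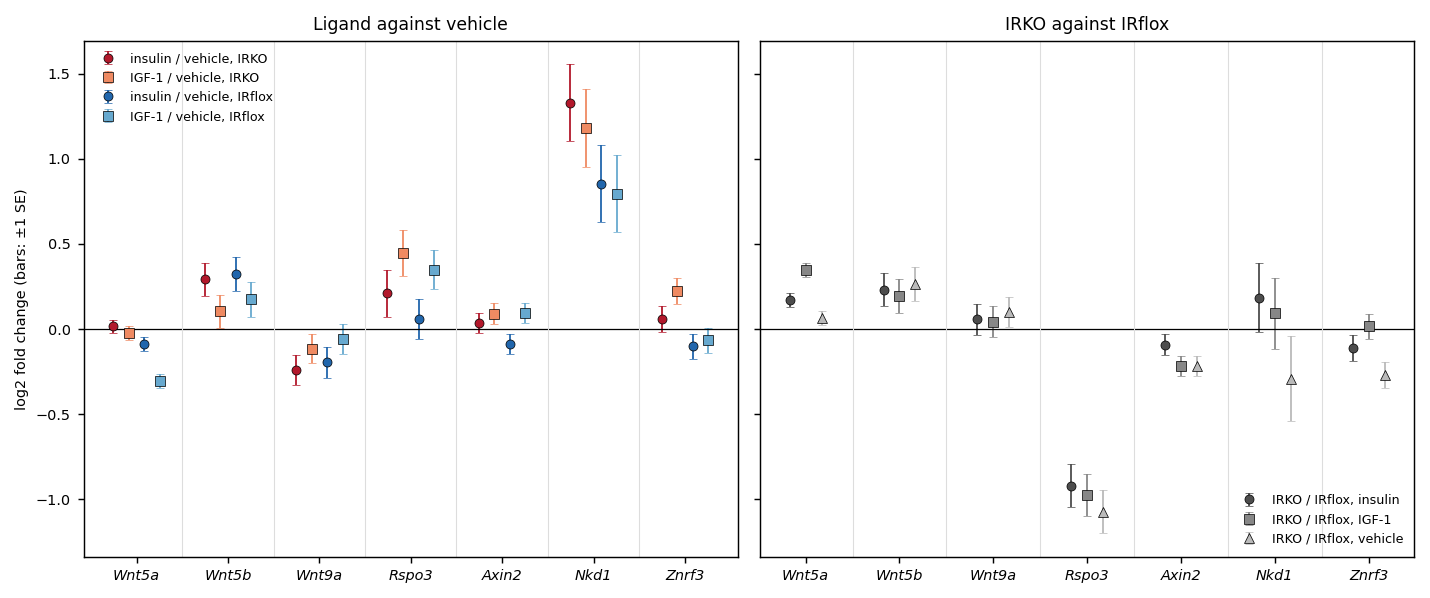
Log2 fold change with SE of the 7 genes that passed the filter, for each ligand against vehicle in each genotype (left) and for IRKO against IRflox in each treatment (right). The largest ligand differences are those of Nkd1 (0.79 to 1.33) and the largest genotype differences those of Rspo3 (-1.07 to -0.92).

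Of the 7 genes, insulin against vehicle gave 3 calls in IRKO (Nkd1 and Wnt5b higher, Wnt9a lower) and 2 in IRflox (Nkd1 and Wnt5b higher), where 46.4% and 45.7% of all tested genes were called. IGF-1 against vehicle gave 3 calls in IRKO (Nkd1, Rspo3 and Znrf3 higher), where 52% of all genes were called, and 3 in IRflox (Nkd1 and Rspo3 higher, Wnt5a lower), where 50.8% were. Since the genes were picked with these contrasts in view, nothing is read from these shares.

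Between genotypes, calls covered a smaller share of all genes. Here too nothing is read from the shares of the 7 genes, which were picked with these contrasts in view. With insulin, 2 of the 7 genes were called (Wnt5a higher and Rspo3 lower in IRKO), beside 10.5% of all genes. With IGF-1, 3 were called (Wnt5a higher, Rspo3 and Axin2 lower), beside 6.76%. With vehicle, 3 were called (Rspo3, Axin2 and Znrf3 lower), beside 7.86%. Insulin against IGF-1 gave 1 call in IRflox, Wnt5a, where 2.59% of all genes were called. In IRKO it gave 0 of 7, where 2.67% of all genes were called by edgeR, 2147 genes had an unadjusted p under 0.05 and DESeq2 called 540.

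Genes whose 2 groups of 4 libraries did not overlap numbered 2 of 7 for insulin against vehicle in IRKO (38.8% of all genes) and 3 of 7 in IRflox (38.1%). For IGF-1 they numbered 2 of 7 in IRKO (44.9%) and 3 of 7 in IRflox (43.3%). Between IRKO and IRflox they numbered 3 with insulin (15%), 3 with IGF-1 (13.2%) and 4 with vehicle (11.3%). Between insulin and IGF-1 they were Rspo3 alone in IRKO (8.89%) and Wnt5a and Axin2 in IRflox (7.8%). The comparisons share vehicle or genotype groups, so they are not independent of each other. Because the choice of the 7 genes used these same values, nothing is read from these shares either.

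The other genes of the pathway came from a list of 110, of which 89 passed the filter, and these were tested. With insulin, 25 of the 89 rose and 20 fell in IRKO, and 24 rose and 18 fell in IRflox (edgeR's quasi-likelihood test, adjusted over all genes). With IGF-1, 25 rose and 24 fell in IRKO, and 22 rose and 22 fell in IRflox. Median log2 changes over the list were 0.043, 0.024, 0.015 and -0.023 for these 4 comparisons (insulin in IRKO and IRflox, then IGF-1 in IRKO and IRflox), beside 0.009, 0.001, -0.001 and -0.004 over all genes. The shares called were 50.6, 47.2, 55.1 and 49.4%, beside the 46.4, 45.7, 52 and 50.8% of all genes.

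Among the other ligands, Wnt7a and Wnt7b, known for guiding brain blood vessel growth, rose with both ligands in both genotypes. Of the 6 tested, Wnt4 was the only further one called, higher by 0.58 with insulin in IRKO (edgeR). That call was lost in most alternatives (0.44 to 0.58), and Wnt4 had only 20 to 44 counts per library. Wnt7a reached 36.8 ± 1.36 CPM with insulin and 38.4 ± 2.08 with IGF-1, against 21.6 ± 0.365 with vehicle, in IRKO, and 32.5 ± 2.35 and 35.1 ± 1.93, against 20.4 ± 1.18, in IRflox (SD, n = 4 each; log2 0.67 to 0.83, adjusted p from 7.86e-15 to 1.35e-11, edgeR). Wnt7b rose by 0.92 to 1.04 (adjusted p from 3.15e-09 to 1.06e-07, edgeR). Reck, which with Adgra2 forms the co-receptor for these same ligands, fell in all 4, by 0.79 to 1.07 on the log2 scale (adjusted p from 6.35e-13 to 1.87e-09, edgeR).

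On the R-spondin side, Lgr4, a receptor through which R-spondins act, fell. It had 65.9 ± 1.09 CPM with insulin and 59.6 ± 5.05 with IGF-1, against 94.3 ± 3.29 with vehicle, in IRKO, and 67.9 ± 2.39 and 59.7 ± 4.48, against 90.5 ± 8.14, in IRflox (SD, n = 4 each; log2 -0.66 to -0.42, adjusted p from 2.8e-13 to 4.44e-08, edgeR). Of the 6 R-spondin and LGR genes other than Rspo3, 3 passed the filter, and Lgr4 was the one that changed. Lgr4 did not pass the test between genotypes (log2 -0.04 with insulin, 0.00 with IGF-1 and 0.06 with vehicle, adjusted p = 0.71, 0.99 and 0.599, edgeR).

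The 18 receptors and co-receptors all passed the filter. In IRKO, 5 rose and 4 fell with insulin and with IGF-1, and in IRflox 5 rose with each and 4 and 3 fell. Over all genes, 46.4 and 52% were called with insulin and IGF-1 in IRKO, and 45.7 and 50.8% in IRflox. These shares also stand beside the counts against vehicle of the lists below. Fzd1 rose more with IGF-1 than with insulin: it had 172 ± 4.17 CPM with insulin, 206 ± 6.63 with IGF-1 and 146 ± 5.02 with vehicle in IRKO, and 211 ± 12.8, 248 ± 19.0 and 184 ± 10.7 in IRflox (SD, n = 4 each). Insulin against IGF-1 was -0.27 in IRKO and -0.23 in IRflox (adjusted p = 0.000366 and 0.00209, edgeR). Fzd4 rose by 0.51 to 0.79, Ror1 by 0.14 to 0.30, and the co-receptor Lrp5 fell by 0.41 to 0.46 in the 4 comparisons with vehicle. The Ror1 rise with IGF-1 in IRflox (adjusted p = 0.0173, edgeR) did not pass without IRflox vehicle replicate 4 or IRflox IGF-1 replicate 1 (0.12 and 0.11).

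Several Frizzled genes differed between genotypes. Fzd1 was lower in IRKO by 0.30 with insulin, 0.26 with IGF-1 and 0.33 with vehicle (adjusted p = 2.06e-05, 0.000185 and 5.28e-06, edgeR). Fzd7, Fzd8 and Wls, the carrier that brings Wnt proteins to the cell surface, were chosen after their values were seen. Fzd7 averaged 42.8, 49.9 and 50.5 CPM in IRKO and 57.9, 63.9 and 68.1 CPM in IRflox with insulin, IGF-1 and vehicle (log2 -0.44, -0.36 and -0.43, adjusted p = 8.43e-07, 3.52e-05 and 8.57e-07, edgeR). Fzd8 was lower by 0.30, 0.25 and 0.31 and Wls by 0.16, 0.17 and 0.19 (adjusted p = 0.00122, 0.0105 and 0.000837, and 0.0198, 0.0223 and 0.00702, edgeR). The IGF-1 call of Fzd8 was lost without IRKO IGF-1 replicate 3 (-0.22), and those of Wls with insulin and IGF-1 were each lost without any one of several libraries (-0.12 to -0.16). Fzd4 was lower by 0.48 with insulin and 0.44 with IGF-1 (adjusted p = 0.00314 and 0.00832, edgeR), the second not called without IRflox IGF-1 replicate 2 (-0.38), and vehicle gave -0.25 (adjusted p = 0.24, edgeR). Of the 18 receptors and co-receptors, 4, 4 and 3 fell in IRKO with insulin, IGF-1 and vehicle. The 1 that rose, with vehicle, was Fzd6 (0.20, adjusted p = 0.0346, edgeR, lost in 7 of 15 alternatives), named for the small count, and with insulin and IGF-1 it gave 0.12 and -0.01 and did not pass. Over the 89 genes, 5 rose and 9 fell in IRKO with insulin. With IGF-1, 3 rose and 5 fell, and with vehicle 4 rose and 6 fell. These are 15.7, 8.99 and 11.2% called, beside 10.5, 6.76 and 7.86% of all genes. Higher were Celsr2, Tnfrsf19, Scrib, Apcdd1 and Wnt7a with insulin, Celsr2, Daam2 and Tle3 with IGF-1, and Celsr2, Tnfrsf19, Rhou and Fzd6 with vehicle. Beside those above, Tcf7 and Sfrp1 fell with insulin and vehicle, and Tcf7l1 and Axin1 with insulin. Several of these calls, those of Celsr2 and Tcf7 with vehicle among them, were lost in some alternatives.

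Secreted and surface inhibitors split. Of 20, 13 passed the filter, and 3 rose and 4 fell with insulin and with IGF-1 in IRKO, while 3 rose and 3 fell with insulin and 4 rose and 3 fell with IGF-1 in IRflox. Trabd2b, a membrane protease that inactivates Wnt ligands, rose by 1.05 with insulin and 1.29 with IGF-1 in IRKO and by 1.35 and 1.54 in IRflox (adjusted p = 5.73e-11, 9.95e-14, 6.24e-14 and 4.47e-16, edgeR). Sostdc1, a secreted modulator of Wnt and BMP signals, fell by 0.80, 0.93, 0.78 and 1.02 in the same order (adjusted p = 8.14e-11, 1.49e-12, 6.63e-11 and 4.86e-14, edgeR). Shisa3 rose too, by 0.14 to 0.38, but its rise with insulin in IRKO (adjusted p = 0.0358, edgeR) was lost in 11 of 15 alternatives.

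Among the readouts other than the 4 described, 7 of 9 passed the filter. Tcf7, both a TCF/LEF factor and a target, had 35.03 ± 2.31 CPM with insulin, 50.6 ± 1.90 with IGF-1 and 26.8 ± 1.10 with vehicle in IRKO, and 43.5 ± 2.00, 57.7 ± 2.71 and 31.5 ± 4.29 in IRflox (SD, n = 4 each). Against vehicle it rose by 0.39 and 0.92 in IRKO and by 0.47 and 0.88 in IRflox (adjusted p = 8.02e-06, 2.72e-15, 1.41e-07 and 5.71e-15, edgeR), and insulin stayed below IGF-1 by 0.53 and 0.41 (adjusted p = 6.59e-07 and 6.84e-05, edgeR). Notum, an enzyme that strips the lipid from Wnt ligands, and Bambi, a decoy receptor of the TGF-beta family, were chosen after their values were seen. Notum rose by 0.78 and 0.79 in IRKO and 0.87 and 0.67 in IRflox, and Bambi by 0.48 and 0.62, and 0.42 and 0.50 (adjusted p from 3.03e-05 to 0.00552, edgeR). Of the 7 tested readouts, 3 rose in each of the 4 comparisons, Tcf7, Notum and Bambi. The 3 that fell in any of them are named for the small count. Tnfrsf19, a receptor of the TNF family, fell by 0.21 with IGF-1 in IRKO and by 0.15 in IRflox (adjusted p = 0.000751 and 0.0212, edgeR), the second not with no filter on low counts (-0.14) or without IRflox vehicle replicate 2 (-0.13). Nkd2, the relative of Nkd1, fell by 1.02 with IGF-1 in IRKO (adjusted p = 0.0211, edgeR), but not without IRKO vehicle replicate 3 (-0.94) or IRKO IGF-1 replicate 4 (-0.88). Apcdd1, a surface inhibitor of Wnt signalling, fell by 0.58 with insulin in IRflox (adjusted p = 0.0205, edgeR), but not without IRflox vehicle replicate 1 or 2 or IRflox insulin replicate 3 (-0.53 to -0.51).

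TCF/LEF factors and their nuclear partners, 12 of which passed the filter, moved both ways: 7 rose and 3 fell with insulin and 8 rose and 3 fell with IGF-1 in IRKO, and 7 rose and 1 fell, and 6 rose and 4 fell, in IRflox. Median log2 changes were 0.23 with each ligand in IRKO and 0.19 and 0.15 in IRflox. Beside Tcf7, those that rose in all 4 included Ctnnbip1, which blocks beta-catenin from binding TCF factors (0.33 to 0.49), the co-activators Bcl9l (0.23 to 0.33) and Pygo2 (0.16 to 0.26), and the co-repressor Tle4 (0.16 to 0.32). The Tle4 rise with IGF-1 in IRflox (0.16, adjusted p = 0.00991, edgeR) was 0.10 and did not pass without IRflox IGF-1 replicate 1. Tcf7l2, another TCF/LEF factor, fell by 0.19 and 0.30 in IRKO and by 0.20 and 0.40 in IRflox (adjusted p = 0.0372, 0.000772, 0.0235 and 2.11e-05, edgeR), and each insulin call was lost without any one of 3 libraries (-0.11 to -0.19 in IRKO and -0.18 in IRflox). Bcl9 and Pygo1, relatives of Bcl9l and Pygo2, fell with both ligands in IRKO and with IGF-1 in IRflox, by 0.19 to 0.22 and by 0.33 to 0.34 (adjusted p from 0.000392 to 0.00881, edgeR), and the IRflox call of Pygo1 was lost without IRflox vehicle replicate 3 (-0.24). These 3 were chosen after their values were seen. In the destruction complex and transducers, 16 genes, 4 rose and 5 fell with insulin and 2 rose and 6 fell with IGF-1 in IRKO, and 4 rose and 4 fell, and 3 rose and 4 fell, in IRflox. Csnk1e, a casein kinase, fell by 0.28 to 0.41 and Tnks, a tankyrase that promotes Axin turnover, by 0.17 to 0.27. In the branch without beta-catenin, 15 genes, Nfatc4, a calcineurin-responsive transcription factor, fell by 1.49 and 1.91 in IRKO and 1.82 and 2.03 in IRflox (adjusted p from 4.01e-11 to 1.18e-08, edgeR), and Daam2, a formin that binds Dishevelled, rose by 0.40 and 0.20 in IRKO and 0.33 with insulin in IRflox, where IGF-1 gave 0.10 (adjusted p = 0.152, edgeR).

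**Figure D4:**
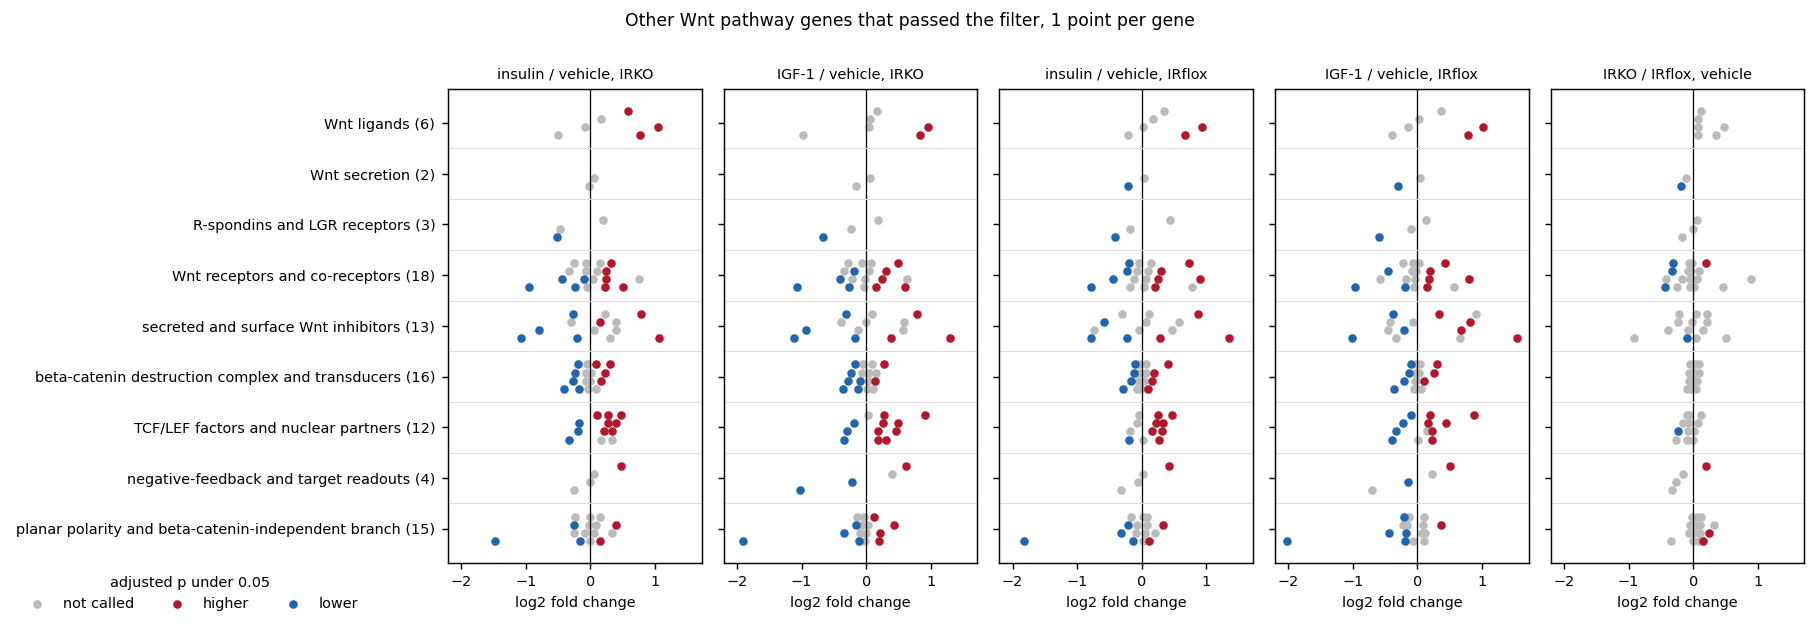
Log2 fold change of the 89 other Wnt pathway genes that passed the filter, 1 point per gene under the first list that holds it (number of genes in parentheses), with red and blue for genes past an adjusted p of 0.05. In the 4 panels against vehicle 42 to 49 genes are coloured, on both sides of 0, and in the panel of IRKO against IRflox with vehicle 10 are.

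Profiles over the 6 group means were compared between each of the 7 genes and 12086 genes with a mean log2 CPM of at least 2, by the root mean square difference of centred log2 CPM. The nearest to Rspo3 were Bc1 and Lpar4, at 0.14 and 0.18, beside a size of 0.52 for the profile of Rspo3 itself. For Nkd1 they were Mcrip2 and Egln3 at 0.12 and 0.13, beside 0.52. For Wnt5a they were Ctf1 and Id2, at 0.04 each, beside 0.13. Wnt5b had Fam151a and Tmem120b, Wnt9a had Mbip and Ppt2, Axin2 had Ap1ar and Eif1ad, and Znrf3 had Mast2 and Ccl22, at 0.02 to 0.04, where the profiles themselves were as small as 0.09 to 0.17.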

How the data were processed

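RNA of 24 libraries (poly-A, non-stranded, 150-base pairs, per the labels' protocols) was measured. The authors deposited 1 table of counts of exonic reads per gene for each library, not normalized. Per the submitters' processing notes, mm10 was the genome and the tools were DESeq2, edgeR, R 4.0.4 and STAR 2.7.7a, with no role stated for each. No source used here gives the counting program or annotation. Footer lines that name no gene were left out. Of 32719 genes, 7666 had no count. Without strand, reads of overlapping antisense genes cannot be told apart, though none of the 8 genes shares exon bases with another gene in GENCODE M21 (32663 IDs matched).

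Counts were filtered with filterByExpr (minimum count 10, total 15), scaled by TMM (factors 0.982 to 1.018) and fitted in edgeR 4.0.16 (R 4.3.3) with 1 mean per group over all 24 libraries. Differences were tested by the quasi-likelihood test with Benjamini-Hochberg adjustment at 0.05, after checks on simulated data. The simulated data had few changed genes and a common spread for all genes, so they do not check comparisons with as many changes as those against vehicle. The biological coefficient of variation was 4.92%. Alternatives were library size alone, RLE factors, other filters, DESeq2 1.42.0, only the groups compared, a replicate block and leaving out each library. The 8 genes and all lists were chosen with earlier results of these data known. Pathway genes were named by rank of their lowest p over the 4 comparisons with vehicle, up to 20, and others are marked as chosen after their values were seen. For each of the 8 genes, the 2 nearest profiles were named. Promoters came from RefSeq, for which Wnt5a, Rspo3 and Znrf3 had no entry.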

Additional observations from a re-analysis of the deposited data

Results flagged for a closer look

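Among 54 groups of 4 libraries examined for the 8 genes and Insr, 4 held a library set apart from the other 3 by a gap above Dixon's 95% critical value, and chance alone gives about 1 in 20. Rspo3 was lowest in IRKO vehicle replicate 2, at 5.506 CPM, where the other 3 had 8.02 to 8.42 CPM. Axin2 was lowest in the same library, at 34.33 CPM, against 40.2 to 41.0 CPM. Without this library the IGF-1 difference of Rspo3 in IRKO (log2 0.32) and the vehicle difference of Axin2 between IRKO and IRflox (-0.16) were not called. Nkd1 was highest in IRKO IGF-1 replicate 1, at 5.048 CPM, against 3.80 to 3.94 CPM. Znrf3 was highest in IRflox IGF-1 replicate 2, at 25.74 CPM, against 22.1 to 22.4 CPM.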

How the results depend on the processing

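No direction of the 8 genes or of the other named genes was reversed where it was called. Every alternative value of the 7 tested genes (728 with a library left out and 539 others) lay within 1 SD of the main one. Leaving out 1 of 4 libraries can hardly shift a difference by 1 SD, so the 728 say little about stability. The calls of these 7 genes that were lost or gained stand beside their values above. For the difference of responses between genotypes, 19 genes were called for insulin and 19 for IGF-1 with no filter, DESeq2 called 2 for IGF-1 (Wnt5a and Stat2), and leaving out 1 library gave 0 to 4 for insulin (4 without IRKO vehicle replicate 1, 1 without IRflox vehicle replicate 1 and 1 without IRKO insulin replicate 1) and 0 for IGF-1. For insulin against IGF-1, leaving out 1 library turned 404 genes in IRflox into 247 to 424, with 247 without IRflox IGF-1 replicate 4 and 247 without IRflox insulin replicate 2. In IRKO, 417 became 267 to 403, with 267 without IRKO insulin replicate 1 and 276 without replicate 3. The other alternatives gave 393 (RLE factors) to 603 (no filter on low counts) in IRflox. For IRKO they gave 411 (RLE factors) to 592 (only the groups compared). The cause was not tested. Scaling by library size alone turned the IRKO against IRflox split with insulin, 771 higher and 863 lower, into 938 and 696. Same-numbered libraries of different groups did not deviate together (60 pairs, mean r 0.002, from -0.115 to 0.061), and 4 of 24 libraries correlated best with their own number. With the replicate block, 7229, 8089, 7115 and 7917 genes were called for insulin and IGF-1 against vehicle in IRKO and then in IRflox, 428 and 411 for insulin against IGF-1, 1625, 1067 and 1216 between genotypes with insulin, IGF-1 and vehicle, and 0 for both differences of responses. Depth limits Lef1 and, to a lesser degree, Nkd1.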
